A study of Mus musculus with 10 samples.

Results

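Neurotrophins are secreted growth factors that keep neurons alive and adjust their synapses. They are made as proneurotrophins, which proteases cut to the mature form. Mature neurotrophins act through the Trk receptor tyrosine kinases, and proneurotrophins act through the p75 neurotrophin receptor together with sortilin. In the hippocampus brain-derived neurotrophic factor (BDNF) is made by excitatory neurons in response to activity, is known for its part in long-term potentiation and memory, and induces Vgf, a precursor of secreted neuropeptides. The 7 genes described here are 2 ligands (Bdnf and Ntf3), 4 receptors (Ntrk2, Ntrk3, Ngfr and Sort1) and Vgf. They were chosen as a group with earlier results of these data known, so that p-values of single genes below are not those of blind picks. Each symbol matched 1 row among the 52636 genes of the deposited table.

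The libraries were made from hippocampal RNA of C57BL/6 mice aged 3 months. In 5 libraries the genotype was Tshr-/-, loss of the receptor for thyroid-stimulating hormone, and in the other 5 it was wild type. The series concerns spatial learning and memory. The labels name no other allele, treatment or agent. They leave unsaid how many mice a library holds, how the mice were related, and if thyroid hormone was given to the mutants, whose thyroid lacks its main drive.

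Read numbers rebuilt from the table summed to between 23899650 and 33529811 per library. Tshr itself had 0, 0, 0, 5 and 2 reads in Tshr-/- libraries 1 to 5 and 9, 12, 7, 2 and 2 reads in wild-type libraries 1 to 5, so it was too low in hippocampus for the label of each library to be read from it. Libraries differed in transcripts of neighbouring tissue. The summed level of 11 thalamus and habenula markers was 42.9 to 273 FPKM (fragments per gene length and library size) in Tshr-/- and 22.8 to 131 FPKM in wild type. It was highest in Tshr-/- libraries 2 and 1, at 273 and 162 FPKM. The sum of 8 choroid plexus markers reached 2252 FPKM in Tshr-/- library 4, against at most 89.2 FPKM in wild type. Hippocampal markers were present in every library. The sum of 10 dentate granule neuron markers was 110 to 143 FPKM in Tshr-/- and 159 to 209 FPKM in wild type, without overlap. The sum of 8 CA1 pyramidal neuron markers was 99.5 to 164 FPKM and 149 to 211 FPKM, and that of 9 CA3 and CA2 markers was 140 to 194 FPKM and 138 to 187 FPKM. In bulk tissue, fewer cells of a type and less RNA per cell cannot be told apart.

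Bdnf is transcribed from several alternative promoters, and the deposited values add all of its transcripts together. RefSeq start sites on GRCm38.p6 gave 7 promoter windows for Bdnf, 2 for Ntf3 and 1 each for Ntrk2 and Ngfr, each of 300 bases from 250 before to 50 after the start. Both strands were searched for the cAMP response element TGACGTCA, its shorter core TGACG (which the full element contains), the E-box CACGTG and the thyroid hormone receptor core site AGGTCA. Among 32851 windows of the same length these occurred in 1.79%, 20.8%, 7.15% and 16.3%. In Bdnf the core TGACG occurred in 1 of 7 windows and AGGTCA in 1 of 7, while TGACGTCA and CACGTG occurred in none. CACGTG was in 1 of the 2 Ntf3 windows. The Bdnf windows with a match are shown 5′ to 3′ on the plus strand, the first with TGACG read on the opposite strand, so that its reverse complement stands in capitals, and the second with AGGTCA in capitals. A match describes the letters of the window and not a bound site.
Bdnf chr2:109692186-109692485: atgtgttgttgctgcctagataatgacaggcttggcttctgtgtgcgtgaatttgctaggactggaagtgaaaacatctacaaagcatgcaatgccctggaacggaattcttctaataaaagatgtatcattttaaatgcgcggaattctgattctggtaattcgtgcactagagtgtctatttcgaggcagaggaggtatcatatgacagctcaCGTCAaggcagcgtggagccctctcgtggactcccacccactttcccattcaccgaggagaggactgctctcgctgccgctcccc
Bdnf chr2:109692777-109693076: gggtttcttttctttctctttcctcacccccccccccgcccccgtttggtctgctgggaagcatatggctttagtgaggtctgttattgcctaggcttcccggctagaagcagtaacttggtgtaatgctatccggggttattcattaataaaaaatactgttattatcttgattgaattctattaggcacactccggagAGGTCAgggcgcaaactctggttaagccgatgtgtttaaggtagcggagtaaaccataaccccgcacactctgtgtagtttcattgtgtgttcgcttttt

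None of the 7 genes passed the test between genotypes. Bdnf, Sort1 and Vgf stood lower in Tshr-/-, with mean levels of 74.9%, 84.1% and 74.1% of wild type. Values of the genotypes overlapped in every one of the 7 genes but Sort1, and the Sort1 gap depended on scaling, as given below. Each gene was tested with limma on log2(FPKM + 0.1), and a gene was called at a Benjamini-Hochberg adjusted p below 0.05 over the 15471 genes with a mean of at least 0.5 FPKM, which all 7 reached. By that rule 0 of the 7 were called, where 0.0129% of all tested genes were (2 genes, Penk and Cyp26b1). At an unadjusted limma p below 0.05, 3 of the 7 were lower and 0 higher, against 8.38% of all tested genes lower (1296 genes) and 719 genes higher. Limma voom on the rebuilt reads also called 0 of the 7, with 3 lower and 1 higher (Ntrk2) at an unadjusted p below 0.05. That fit took the sum of the rebuilt reads as library size. Each of the 7 differences stood higher in it than with FPKM, Bdnf at -0.35, Sort1 at -0.19, Vgf at -0.36 and Ntrk2 at 0.14. The part of the scaling in the Ntrk2 result was not tested. In the voom fit 2241 of the 15471 genes were below that p in either direction. The median difference of the 7 was -0.12 on the log2 scale, beside -0.01 over all tested genes, of which 53.3% stood lower. A negative difference means a lower level in Tshr-/-. The 0.1 FPKM added before the logarithm shrinks the differences of low genes.

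**Figure D1:**
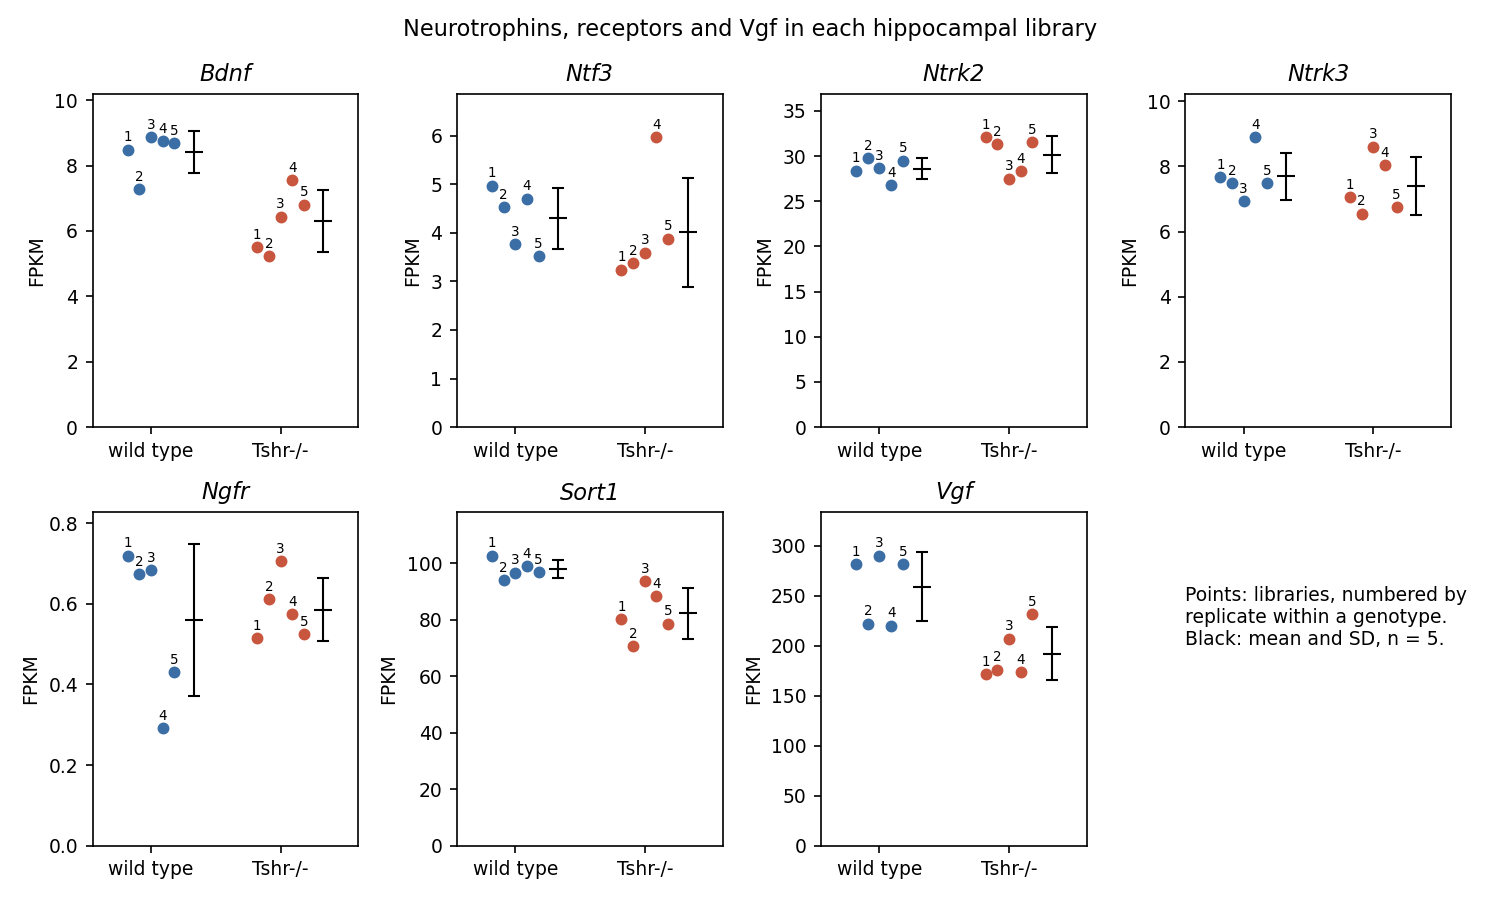
FPKM of each of the 7 genes in each library, with 1 panel per gene; points are libraries, numbered as in the labels, and bars are the mean and SD of the 5 libraries of a genotype. Sort1 is the gene whose 2 genotypes do not overlap, and in Bdnf and Vgf 1 Tshr-/- library reaches into the wild-type range.

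The ligand Bdnf (ENSMUSG00000048482, mm10 chromosome 2, 109674700 to 109727007, plus strand) was at 5.51, 5.22, 6.44, 7.56 and 6.80 FPKM in Tshr-/- libraries 1 to 5. Wild-type libraries 1 to 5 had 8.48, 7.29, 8.87, 8.74 and 8.69 FPKM. In 4 of the 5 Tshr-/- libraries the level was below every wild-type library, and only Tshr-/- library 4 lay above wild-type library 2. Tshr-/- libraries 1 and 2, the lowest in Bdnf, were also the highest in thalamus and habenula markers. A fit with those markers as a covariate is given below. The Bdnf means were 6.31 ± 0.956 (SD, n = 5) and 8.42 ± 0.647 FPKM (SD, n = 5). The difference was -0.42 (SE 0.10, 95% interval -0.64 to -0.20), with a limma adjusted p of 0.176. A 2-sided exact permutation test of the Bdnf means, taken alone, gave p = 0.0159, where 5 against 5 libraries cannot give less than 0.00794. Bdnf rested on 956 to 1616 reads per library, and the antisense gene Gm45346, which the unstranded libraries cannot separate from it, had at most 0.497% as many.

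Neurotrophin-3, the ligand of TrkC, is encoded by Ntf3 (ENSMUSG00000049107, chromosome 6, 126101412 to 126166910, minus strand). Its level was 3.24, 3.37, 3.59, 5.97 and 3.88 FPKM in Tshr-/- libraries 1 to 5 and 4.97, 4.53, 3.76, 4.70 and 3.51 FPKM in wild type. Tshr-/- library 4 was the highest of all 10 libraries, and the other 4 Tshr-/- values lay below 3 of the 5 wild-type values. That library was also the one high in choroid plexus markers, whose part in the Ntf3 value was not tested. The means of 4.01 ± 1.12 and 4.30 ± 0.626 FPKM (SD, n = 5 each) differed by -0.12 (95% interval -0.48 to 0.24, limma adjusted p = 0.787). Without Tshr-/- library 4 the Ntf3 difference was -0.27 (limma adjusted p = 0.328).

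Ntrk2 (ENSMUSG00000055254, chromosome 13, 58806569 to 59133970, plus strand) encodes TrkB, the receptor of BDNF. It was at 32.1, 31.3, 27.5, 28.3 and 31.5 FPKM in Tshr-/- and at 28.4, 29.8, 28.7, 26.8 and 29.5 FPKM in wild type. Libraries 1, 2 and 5 of Tshr-/- were above every wild-type library, and the other two lay within the wild-type range. The means of 30.2 ± 2.08 and 28.6 ± 1.17 FPKM (SD, n = 5 each) differed by 0.07 (95% interval -0.05 to 0.20, limma adjusted p = 0.605). The Ntrk2 difference was 0.15 with quantile normalization (limma unadjusted p = 0.0314, adjusted 0.385) and 0.14 with voom (limma unadjusted p = 0.045, adjusted 0.335). Full-length TrkB carries the kinase, while truncated TrkB, known as the form of astrocytes, lacks it. The gene values add both. The gene length used for FPKM was 19292 bases, 2.21 times the longest coding transcript of GENCODE vM21, so the Ntrk2 level per length is lower than for a transcript of its own length.

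Ntrk3 (ENSMUSG00000059146, chromosome 7, 78175959 to 78738012, minus strand) encodes TrkC, and likewise has full-length and truncated forms that the table adds together. Tshr-/- libraries 1 to 5 had 7.06, 6.55, 8.60, 8.04 and 6.76 FPKM and wild-type libraries 7.67, 7.49, 6.94, 8.90 and 7.49 FPKM. The ranges of Ntrk3 overlapped over most of their length. Its means of 7.40 ± 0.881 and 7.70 ± 0.728 FPKM (SD, n = 5 each) differed by -0.06 (95% interval -0.26 to 0.14, limma adjusted p = 0.815). Leaving out 1 library moved the Ntrk3 difference between -0.1147 (without Tshr-/- 3) and -0.0061 (without wild-type 4). The antisense gene Gm9885 had up to 4.83% as many reads as Ntrk3 and cannot be separated from it by strand.

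Ngfr (ENSMUSG00000000120, chromosome 11, 95568818 to 95587735, minus strand) encodes the p75 neurotrophin receptor, which in the adult forebrain is known from cholinergic neurons. It was near the limit of the test, at 0.514, 0.611, 0.706, 0.574 and 0.524 FPKM in Tshr-/- and 0.720, 0.673, 0.683, 0.292 and 0.431 FPKM in wild type. Those values stood on 25 to 78 reads per library. The lowest, in wild-type library 4, had a Poisson interval of 0.189 to 0.432 FPKM, for counting error only. The means of 0.586 ± 0.0775 and 0.560 ± 0.188 FPKM (SD, n = 5 each) differed by 0.10 (95% interval -0.41 to 0.61, limma adjusted p = 0.880), an interval that leaves room for a difference in either direction. Of 6 cholinergic neuron markers, 0 passed the filter and Chat, Slc18a3, Lhx8, Gbx1 and Isl1 were at 0 in at least 1 library. Their sum was 0.139 to 3.35 FPKM in Tshr-/- and 0.200 to 0.397 FPKM in wild type. The 3.35 FPKM was that of Tshr-/- library 2 alone, and the next highest was 0.617 FPKM in Tshr-/- library 5.

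Sort1 (ENSMUSG00000068747, chromosome 3, 108284082 to 108361511, plus strand) encodes sortilin, which binds proneurotrophins beside p75 and sorts BDNF within the cell. It was at 80.1, 70.6, 93.6, 88.4 and 78.5 FPKM in Tshr-/- libraries and at 103, 94.0, 96.7, 99.0 and 96.8 FPKM in wild type. Every Tshr-/- library was below every wild-type library, as in 1.76% of all tested genes. The gap was narrow, from 93.6 FPKM in Tshr-/- library 3 to 94.0 FPKM in wild-type library 2. Scaled to the rebuilt reads alone, the genotypes overlapped, since Tshr-/- library 3 had 714 Sort1 reads per 1000000 and wild-type library 3 had 702. The means of 82.2 ± 8.94 and 97.8 ± 3.24 FPKM (SD, n = 5 each) differed by -0.26 (SE 0.07, 95% interval -0.42 to -0.10). The limma adjusted p was 0.207. The exact permutation p of the Sort1 means alone, 0.00794, is the smallest this design allows.

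Vgf (ENSMUSG00000037428, chromosome 5, 137026392 to 137033351, plus strand) encodes the neuropeptide precursor that neurotrophins induce. Its level was 172, 176, 207, 173 and 232 FPKM in Tshr-/- libraries 1 to 5 and 282, 222, 290, 220 and 282 FPKM in wild type. The wild-type libraries formed a higher set of 3 and a lower pair, and Tshr-/- library 5 was above that pair. The means of 192 ± 26.5 and 259 ± 34.9 FPKM (SD, n = 5 each) differed by -0.43 (SE 0.11, 95% interval -0.68 to -0.18). For Vgf the limma adjusted p was 0.187 and the exact permutation p of the means alone was 0.0238.

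**Figure D2:**
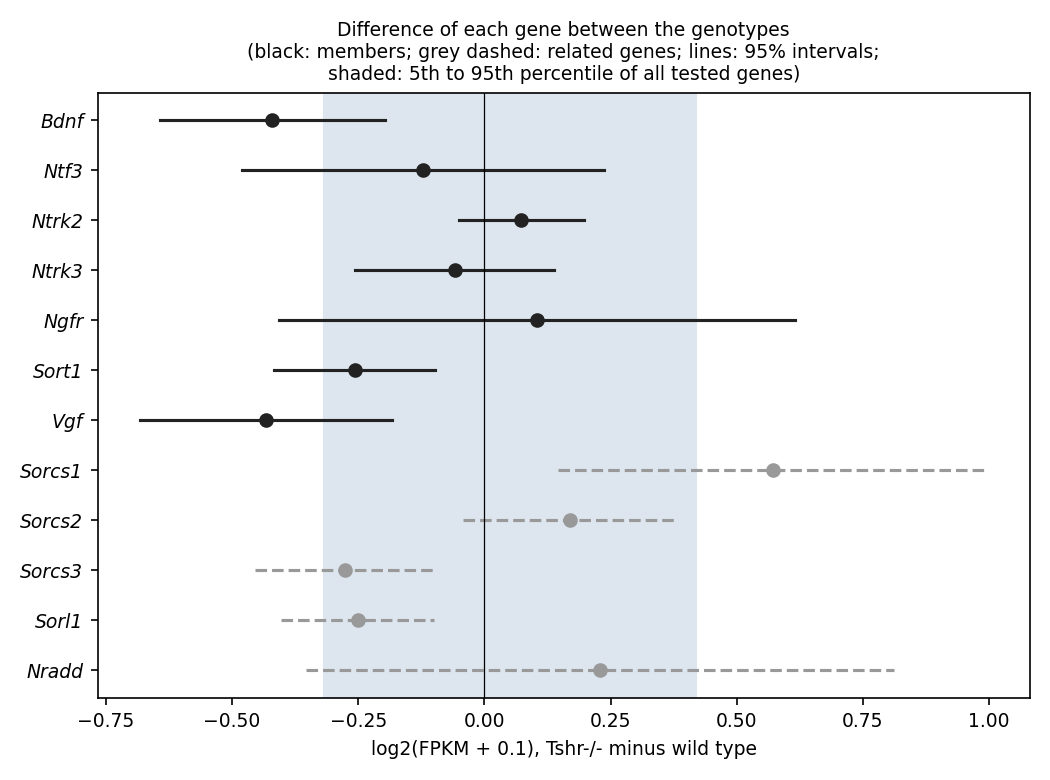
Horizontal axis: Tshr-/- minus wild type in log2(FPKM + 0.1), for the 7 genes (black) and 5 related genes (grey); points are limma estimates, lines their 95% intervals, and the shaded band runs from the 5th to the 95th percentile of all tested genes (-0.32 to 0.42). The intervals of Bdnf, Sort1 and Vgf lie below 0 and those of Ntf3, Ntrk2, Ntrk3 and Ngfr include it, and no adjusted p of these genes is below 0.05.

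Levels per length ordered the 7 genes as Vgf, Sort1, Ntrk2, Bdnf, Ntrk3, Ntf3 and Ngfr in wild type. In that order Bdnf and Ntrk3 had overlapping ranges, with Bdnf above Ntrk3 in 3 of 5 libraries. In Tshr-/- Ntrk3 came before Bdnf, in 4 of 5 libraries and again with overlapping ranges, and the rest of the order was the same. The ranges of Bdnf and Ntf3 also overlapped in Tshr-/-, although Bdnf was above Ntf3 in 5 of 5 libraries. Among the tested genes the mean level of Vgf stood at the 99.2 percentile, that of Sort1 at 97.1, Ntrk2 at 88.7, Ntrk3 at 60.9, Bdnf at 60.3, Ntf3 at 44.9 and Ngfr at 2.71.

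Among the 7 genes some levels moved together from library to library. Over the 10 libraries, log2 levels of Bdnf and Sort1 had a Pearson r of 0.863 (permutation p = 0.00154, adjusted over the 21 pairs of members 0.0176) and a Spearman rho of 0.806 (adjusted permutation p = 0.0698). This r held the genotype difference, and after each genotype's mean was subtracted it was 0.635. Without the 2 libraries farthest from the Bdnf median, Tshr-/- 1 and 2, it was 0.656. Ntrk2 and Ntrk3 went in opposite directions, with r = -0.861 (permutation p = 0.00168, adjusted 0.0176) and rho = -0.842 (adjusted permutation p = 0.0698). Their r was -0.874 after subtracting genotype means and -0.850 without the 2 most distant libraries. The means of several marker lists ran in opposite directions with the receptors over 10 libraries, as a description. The r with Ntrk2 and with Ntrk3 was 0.75 and -0.59 for thalamus and habenula markers and 0.55 and -0.69 for 9 oligodendrocyte markers. It was 0.60 and -0.54 for neocortex, -0.75 and 0.48 for dentate granule neuron and -0.62 and 0.41 for CA1 markers. The part of these lists in the relation was not tested. The remaining 19 pairs had an adjusted permutation p above 0.05 for r, and for rho all 21 did. Bdnf and Vgf were among the 19 (r = 0.777, adjusted permutation p = 0.0534, and 0.406 after subtracting genotype means). So were Ntrk2 and Sort1 (r = -0.784, adjusted permutation p = 0.0534, and -0.778 after subtraction). Ntrk3 and Sort1 had r = 0.652 (adjusted permutation p = 0.124) and 0.788 after subtraction.

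The genes whose levels followed each member most closely over the 10 libraries were ranked by Pearson r, as a description. For Bdnf they were Myh9 (0.968), Zmynd8 (0.967) and Npas4 (0.958), the last an activity-induced transcription factor that acts at Bdnf promoters. For Sort1 they were Chn1 (0.978), Ptpra (0.977) and Papd7 (0.975). For Vgf they were Nat8l (0.977), Creld1 (0.974) and Tsc22d2 (0.970). Ntf3 was followed by Plekha2 (0.925), Stk10 (0.922) and Gpsm2 (0.895). Ntrk2 was followed by Stmn4 (0.977), Tpd52 (0.952) and Dpp10 (0.951). Ntrk3 was followed by Ercc6 (0.954), Mir7220 (0.945) and Celf2 (0.938). For Ngfr the first were Gm15487 (0.956) and Rpl35a-ps4 (0.932), pseudogenes whose reads may be shared with their parent genes, and then Bex3 (0.912), which encodes a protein that binds p75. With genotype means subtracted, Chn1 (0.967) and Papd7 (0.960) remained among the 3 closest to Sort1, with Synpr (0.964), and Stmn4 (0.973) remained for Ntrk2, with Gab2 (0.968) and Tsn (0.967). Plekha2 (0.938) remained for Ntf3, with Ephx1 (0.943) and Top3b (0.924), and Gm15487 (0.955) and Rpl35a-ps4 (0.930) remained for Ngfr, with Prmt1 (0.926). The 3 closest to Bdnf then included Phc1 (0.963) and Arap3 (0.956), those to Ntrk3 were Lyst (0.981), Med14 (0.979) and Rras2 (0.977), and those to Vgf were Kcnk12 (0.976), Spen (0.969) and Maged1 (0.965).

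Of 6 other genes for neurotrophin ligands and receptors, 5 were measured and 0 were called by limma, with 1 higher and 2 lower at an unadjusted p below 0.05 and a median difference of 0.17. Of all 15471 tested genes, 8.38% were lower and 719 genes higher at that p. Ntf5, which encodes another ligand of TrkB, was below the filter. Of the sortilin relatives, Sorcs3 was at 7.41 ± 0.673 against 9.0 ± 0.836 FPKM (limma adjusted p = 0.213), Sorl1 at 36.4 ± 3.61 against 43.2 ± 2.02 FPKM (adjusted p = 0.200) and Sorcs1 at 2.20 ± 0.546 against 1.44 ± 0.350 FPKM (adjusted p = 0.266, SD, n = 5 each).

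Genes that cut or clear proneurotrophins showed no call by limma in 8 measured of 11, 4 higher and 4 lower, with a median difference of -0.02. Furin, a protease that cuts proneurotrophins inside the cell, was at 5.13 ± 0.583 against 5.92 ± 0.663 FPKM. Plat, which encodes tissue plasminogen activator, was at 4.77 against 5.33 FPKM, and the related convertase Pcsk5 at 1.76 ± 0.249 against 1.43 ± 0.146 FPKM. Of 25 Trk adaptors and proximal signalling genes, 0 were called and 15 stood lower, with a median of -0.04. In that group Nedd4l, a ubiquitin ligase, was at 10.9 ± 0.637 against 12.5 ± 0.887 FPKM (limma adjusted p = 0.240) and Slitrk5, which encodes a partner of TrkB, at 19.1 ± 2.45 against 22.8 ± 2.98 FPKM. Of 13 p75 partners 0 were called and 8 stood lower, with a median of -0.06. They included Rtn4r, the Nogo receptor, at 31.0 ± 5.68 against 38 ± 3.62 FPKM. The SDs are over 5 libraries each.

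Vgf protein is stored in dense-core vesicles, and of 13 granins and genes that process such cargo 0 were called and 8 stood lower, with a median of -0.06. Chgb, which encodes a granin, was at 211 ± 25.6 against 244 ± 10.1 FPKM. Pcsk2, a convertase of neuropeptide precursors, was at 37.8 ± 2.83 against 32.6 ± 0.788 FPKM (limma adjusted p = 0.194).

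Genes induced by neuronal activity or BDNF stood lower as a group, with 19 of 20 lower, 17 of them at an unadjusted limma p below 0.05 and a median difference of -0.67. Of all tested genes, 8.38% were lower at that p. Over all genes 1 of them was called. Penk, which encodes the enkephalin precursor, fell from 16.8 ± 1.87 FPKM in wild type to 9.22 ± 0.695 FPKM in Tshr-/- (SD, n = 5 each, limma adjusted p = 0.0127). The call on Penk held in 19 of 24 other settings. It was lost without Tshr-/- library 2 (limma adjusted p = 0.0503), without wild-type library 2, 3 or 4 (0.0732, 0.0810 and 0.0601) and with the mean of the dentate granule neuron markers as a covariate (0.501), while the difference ran from -1.0017 to -0.7919 over the 24. Arc, Fos and Dusp6 missed the threshold, with limma adjusted p-values of 0.130, 0.136 and 0.0842. In the 24 other settings Dusp6 was called in 1 (limma adjusted p = 0.0239), and Arc and Fos in 0. This list holds genes whose lower values were known from earlier results of these data, so its count is no independent evidence of a direction. Of 20 transcription factors known to act at Bdnf promoters, 0 were called and 14 stood lower, 5 of them at an unadjusted limma p below 0.05, with a median of -0.06. Npas4 was at 1.79 ± 0.488 against 3.36 ± 0.664 FPKM (limma adjusted p = 0.145), Srf at 21.3 ± 3.71 against 27.4 ± 3.82 FPKM and Bhlhe40, an E-box repressor, at 19.6 ± 3.09 against 25.1 ± 3.14 FPKM.

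**Figure D3:**
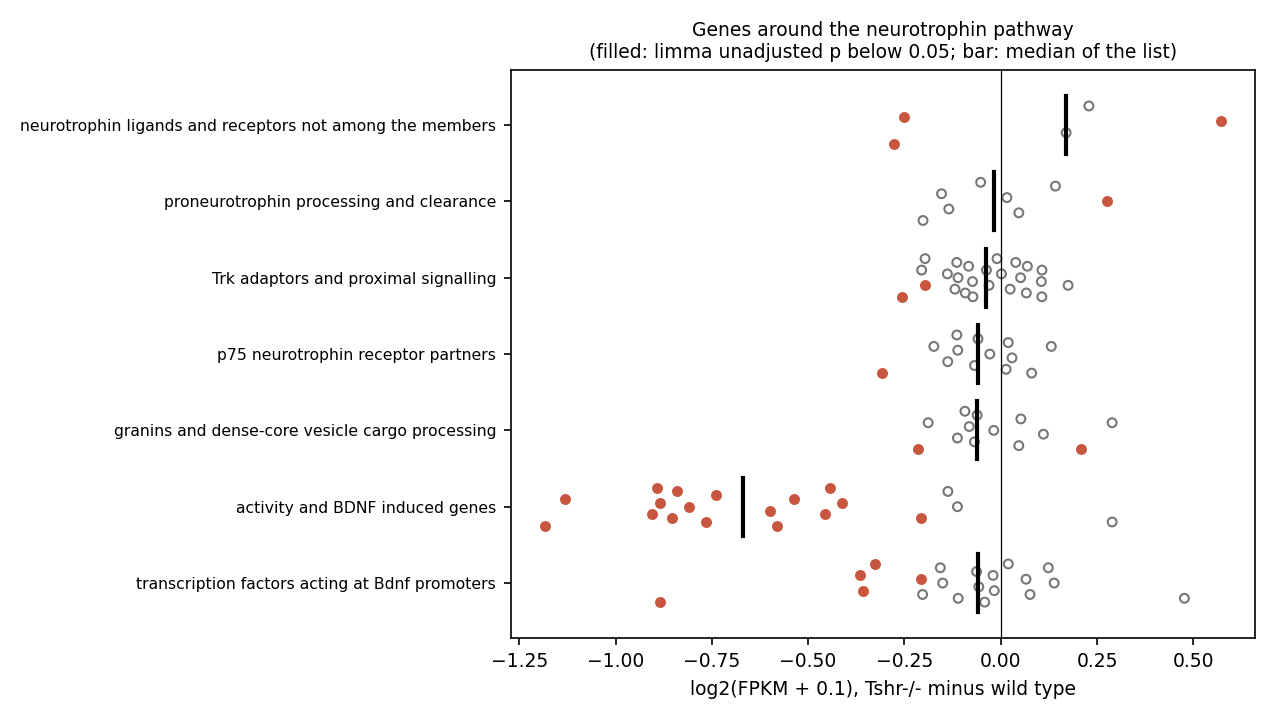
Horizontal axis: Tshr-/- minus wild type in log2(FPKM + 0.1), for each measured gene of the 7 pathway lists; each point is 1 gene, filled where the unadjusted limma p is below 0.05, and each bar is the median of a list. The activity and BDNF induced list has its median at -0.67, that of the 5 other ligand and receptor genes at 0.17, and those of the remaining lists lie between -0.06 and -0.02.

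Dentate granule neuron markers moved with the levels of Bdnf and Sort1 over the 10 libraries (r = 0.89 with each, as a description). They were not alone in this. The r with Bdnf and Sort1 was 0.75 and 0.82 for CA1 markers and -0.68 and -0.68 for thalamus and habenula markers. With Vgf it was 0.70 for dentate, 0.80 for CA1 and 0.83 for 8 interneuron markers. It was -0.80 for CA3 and CA2, -0.61 for meningeal and vascular wall cell and -0.45 for thalamus and habenula markers. Each r holds the genotype difference. All 10 dentate markers stood lower in Tshr-/-, 8 of them at an unadjusted limma p below 0.05, and the mean level of the list did not overlap between genotypes. Of all single genes tested, 8.38% were lower at that p, and 1.76% had every Tshr-/- library below every wild-type library. Within Tshr-/- the 2 libraries with the highest mean, 3 and 4, were also the 2 highest in Sort1 and the 2 lowest in Ntrk2, and library 4 was the highest in Bdnf. Tshr-/- library 5 had a dentate mean of -0.29, below libraries 2 to 4, but more Bdnf (6.80 FPKM) than libraries 1 to 3. In wild type Bdnf was highest in library 3 (8.87 FPKM) and the dentate mean in library 1 (0.36). Of 8 CA1 markers, 7 stood lower, 5 at an unadjusted limma p below 0.05. The markers were chosen with earlier results of these data known, so these counts are no independent evidence of a direction. With the dentate mean as a covariate, chosen after seeing the data, the limma difference was -0.07 (SE 0.17) for Bdnf, 0.00 (SE 0.12) for Sort1 and -0.39 (SE 0.24) for Vgf, with limma adjusted p-values of 0.954, 0.998 and 0.756. Since the covariate separates the genotypes, genotype and dentate marker level cannot be told apart here. With the thalamus and habenula mean as a covariate the differences were -0.34 for Bdnf, -0.20 for Sort1 and -0.39 for Vgf, with limma adjusted p-values of 0.160, 0.231 and 0.235.

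**Figure D4:**
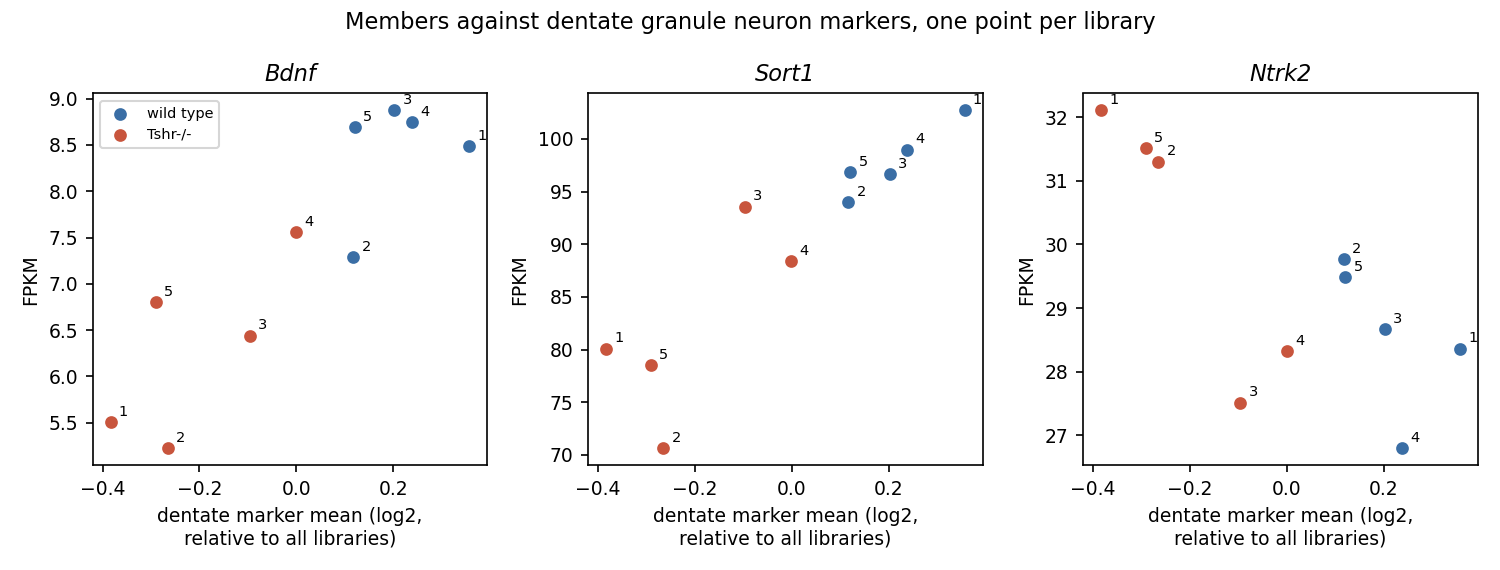
FPKM of Bdnf, Sort1 and Ntrk2 (1 panel each) against the centred mean log2 level of 10 dentate granule neuron markers; each point is 1 library, coloured by genotype and numbered by replicate. The Tshr-/- libraries lie at -0.38 to -0.00 and the wild-type libraries at 0.12 to 0.36 on the horizontal axis, without overlap.

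**Figure D5:**
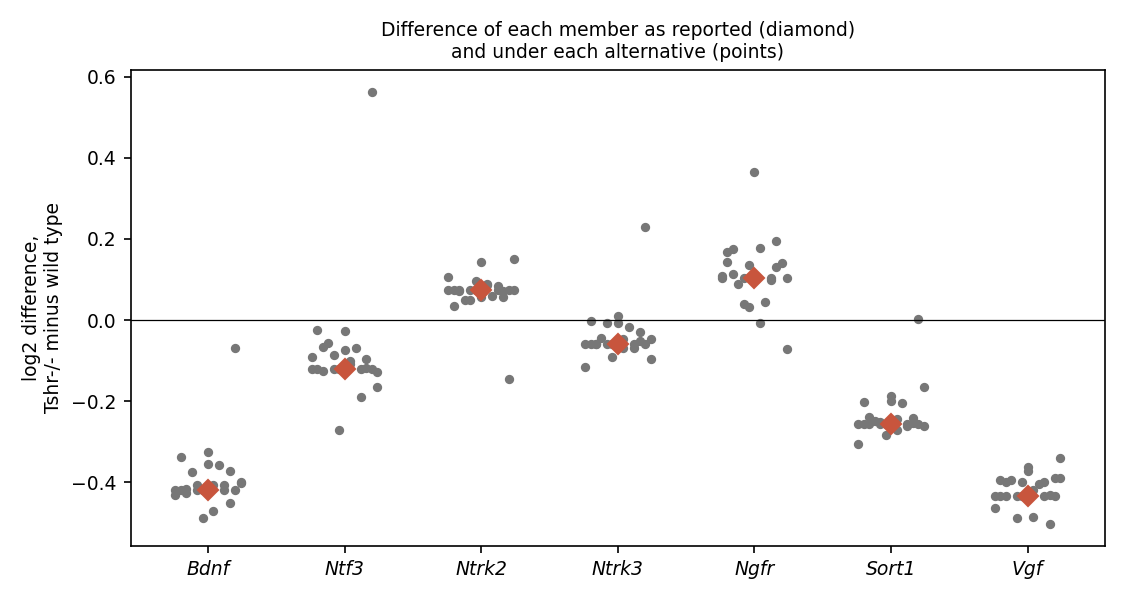
Vertical axis: log2 difference, Tshr-/- minus wild type, for each of the 7 genes; each grey point is 1 other setting and the diamond is the reported value. Bdnf and Vgf lie below 0 in all 24 settings and Sort1 in 23, the exception being the dentate covariate.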

How the data were processed

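RNA of 10 hippocampus samples was sequenced, 5 of each genotype. The submitters' processing notes name HISAT2 2.0.5, featureCounts 1.5.0-p3 and the build mm10, with an annotation release not given in the sources used here. What the authors deposited is 1 table of FPKM values. Multiplied by gene length, 100% of the values above 0 were whole multiples of a library's value for 1 read (tolerance 0.01 of a read), and these multiples were used as reads. Per the labels' protocols, the kit was one without strand marking.

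Genes with a mean of at least 0.5 FPKM were tested on log2(FPKM + 0.1) with limma 3.58.1 in R 4.3.3, using a 2-genotype model with a mean-variance trend and Benjamini-Hochberg adjustment over all tested genes. Exact permutation tests of single genes, 2-sided, used all 252 splits. Relations between members used 100000 resamples. Intervals of reads are Poisson intervals at 95%.

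The 7 genes, the lists and the markers were chosen with earlier results of these data known. Named genes are the 7, in each list the 4 measured genes with the smallest p and any called gene (not all 4 are printed), the 3 genes closest to each member, and Tshr. A few genes that the lists or the rule took are not reported here, and lists were counted without them. Other genes, such as Cyp26b1, Ntf5 and the markers and antisense genes, were named after their values were seen. The alternatives were pseudocounts of 1 and 0.01, a filter of 1 FPKM or none, median-ratio and quantile scaling, no variance trend, robust empirical Bayes, protein-coding genes alone, voom, a replicate block, libraries left out in turn, the thalamus covariate and the 6 libraries below the thalamus mean. The dentate covariate and the Sort1 scaling to rebuilt reads were added after seeing the data.

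The labels do not make same-numbered libraries pairs, so the numbers were not taken as pairs. Their deviations from the genotype means had correlations of -0.063, 0.296, 0.0763, 0.169 and -0.0651. Numbers 2 and 4 were best partners in both directions. With 5 libraries per genotype these values cannot decide if libraries pair. Promoter windows came from RefSeq (GRCm38.p6) and matched 4 of the 7 genes.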

Additional observations from a re-analysis of the deposited data

Results flagged for a closer look

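Of the 14 sets of 5 libraries (7 genes in each genotype), 2 held a library far from the others by Dixon's ratio, above 0.71; chance marks about 1 in 20 such sets. Bdnf in wild-type library 2, at 7.29 FPKM, lay below the other 4 wild-type libraries, and its gap to the nearest was 0.755 of the range. Ntf3 in Tshr-/- library 4, at 5.97 FPKM, lay above the other 4 Tshr-/- libraries, with a gap of 0.767 of the range.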

How the results depend on the processing

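Over the 7 genes, 167 values under other settings kept the reported direction in 160 cases, and limma called 0. Bdnf, Sort1 and Vgf had an unadjusted p below 0.05 in 23 of 24 settings each, the exception being the dentate covariate. Limma called 2 genes in all, and 13 with a filter of 1 FPKM, 4 without a filter, 14 with a pseudocount of 0.01, 13 with median-ratio scaling, 4 with quantile normalization, 1 without a trend, 13 with robust empirical Bayes, 17 among protein-coding genes, 9 with voom, 4 with the thalamus covariate and 0 with the dentate covariate (1178 at an unadjusted p below 0.05). Leaving out 1 library gave 0 to 9 (0 without Tshr-/- 2 or wild-type 2, 3 or 4, where limma left 1525, 2199, 1449 and 2006 at an unadjusted p below 0.05; 1 without Tshr-/- 1 or wild-type 5, 4 without Tshr-/- 3, 9 without Tshr-/- 5). Directions turned with the dentate covariate for Ntf3 (0.56), Ntrk2 (-0.14), Ntrk3 (0.23), Sort1 (0.0026), Sorcs1 (-0.36), Rapgef1 (0.0251), Slitrk5 (0.0076), Nedd4l (0.0277), Rtn4r (0.13), Chgb (0.12), Scg3 (-0.014) and Srf (0.0188). They also turned for Ntrk3 with voom (0.01) and for Ngfr with quantile normalization (-0.0078) and when 1 library was left out (-0.0703 without wild-type 4, to 0.20). The cause was not tested. With the replicate number as a block, which the labels do not make a pairing, 3 genes were called and Bdnf had a limma adjusted p of 0.152. Ngfr, under 1 FPKM, could not be tested with that filter. The differences of the genes closest to each member are not reported and were not recomputed. Depth limits Ngfr (25 to 78 reads) and Ntf3 (148 to 274 reads) most.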
